A study of Mus musculus with 8 samples.

Results

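The genes described here are 10 apolipoprotein and lipoprotein-assembly genes of mouse liver, taken as the rows of the deposited expression table whose Ensembl identifier carries the symbol Apoa1, Apoa2, Apoa4, Apoa5, Apob, Apoc2, Apoc3, Apoe, Apom or Mttp. All 10 were found among the 38283 genes of the table, and all 10 were among the 11634 genes tested. RNA was sequenced from livers of male C57BL/6 mice of the genotypes RORα f/f and RORα LKO. Mice of both genotypes carry Rora alleles with loxP sites around exons 4 and 5, and RORα LKO mice also carry Cre under the albumin promoter (Alb-cre;RORa f/f in the labels), which is active in hepatocytes, so that other liver cells keep the gene. From 8 weeks of age the mice received the control diet (CD) or a high-fat diet (HFD) with 60% of its energy from fat for 10 weeks. Each of the 4 groups has 2 libraries, and RNA of 2 mice was combined in each, which hides the spread between single mice.

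The liver packs triglyceride and cholesterol into very-low-density lipoprotein (VLDL) particles. Apolipoprotein B is the large structural protein of the particle, and the microsomal triglyceride transfer protein, product of Mttp, loads lipid onto it during synthesis. In plasma, exchangeable apolipoproteins decide how the particle is handled: ApoC-II activates lipoprotein lipase, ApoC-III slows lipolysis and uptake, ApoA-V favours lipolysis, and ApoE is the ligand with which remnants bind receptors of the LDL receptor family. High-density lipoprotein (HDL) is built on ApoA-I and ApoA-II, and carries ApoM, which binds sphingosine 1-phosphate. ApoA-IV is made in large amounts by the small intestine and, in the mouse, also by the liver. RORα is a nuclear receptor that binds DNA as a monomer, at a core AGGTCA that follows an AT-rich stretch.

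On GRCm38 with the GENCODE M21 annotation, Apoa1, Apoc3, Apoa4 and Apoa5 lie in 1 cluster of 43.3 kb on chromosome 9, at chr9:46228580-46271919. Apoc2 and Apoe are the outer genes of a second cluster of 27.6 kb, at chr7:19671579-19699188, with Apoc4 and Apoc1 between them. The other members stand alone, Apoa2 at chr1:171225054-171226379, Apob at chr12:7977648-8016835, Apom at chr17:35128997-35132050 and Mttp at chr3:138089854-138144968. The 250 bases before the annotated start were available for 9 of the 10 members from RefSeq on GRCm38.p6, in 13 windows, and the entry for Apoc3 was missing. They were searched on both strands for 5 words, AGGTCA as the core of the ROR site, GGGTCA as a variant of this core, TATAAA as the TATA box, TGACGT as part of the cAMP response element and CAAAGTCCA as an HNF4α site. Of the 32851 promoter windows of that length in the RefSeq table, 14% held AGGTCA, 11.6% GGGTCA, 12.4% TATAAA, 6.47% TGACGT and 0.384% CAAAGTCCA. AGGTCA was present in the window of Apoc2 and in 1 window of Apoa2, at chr1:171221314-171221563, which lies upstream of the Apoa2 coordinates above. The Apoa2 window next to those coordinates, at chr1:171224804-171225053, did not hold it. The Apoa2 match lies on the strand opposite to the gene and there follows a run of adenines. The Apoc2 match follows no AT-rich stretch. Such flanks were not part of the search. GGGTCA was in windows of Apoe, Apoa5 and Apom, TATAAA in windows of Apoa2, Apoe, Apoa5 and Apob, TGACGT in that of Mttp, and CAAAGTCCA in none of the 13. Of the 250 bases, 249 in the Apom window and 250 in the Mttp window lay in a GENCODE exon. Parts of windows of Apoe, Apoa1, Apoa4 and Apob did too.

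3 windows are printed below with any match in capitals: that of Apoa4, the member with the widest genotype difference, that of Apoa5, the member with the widest diet difference in RORα LKO, and that of Apoc2, whose window holds AGGTCA. For Apoa4, at chr9:46240594-46240695 on the plus strand, only the 102 bases before the first GENCODE exon are shown. The Apoa5 window is at chr9:46268358-46268607 on the plus strand, and the Apoc2 window at chr7:19677942-19678191 on the minus strand.
Apoa4: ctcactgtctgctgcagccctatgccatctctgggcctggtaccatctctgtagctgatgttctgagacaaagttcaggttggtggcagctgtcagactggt
Apoa5: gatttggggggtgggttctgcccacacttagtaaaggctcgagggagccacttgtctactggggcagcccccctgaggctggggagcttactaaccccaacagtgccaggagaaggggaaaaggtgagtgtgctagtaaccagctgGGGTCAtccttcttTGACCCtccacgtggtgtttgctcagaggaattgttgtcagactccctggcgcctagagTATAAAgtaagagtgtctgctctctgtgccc
Apoc2: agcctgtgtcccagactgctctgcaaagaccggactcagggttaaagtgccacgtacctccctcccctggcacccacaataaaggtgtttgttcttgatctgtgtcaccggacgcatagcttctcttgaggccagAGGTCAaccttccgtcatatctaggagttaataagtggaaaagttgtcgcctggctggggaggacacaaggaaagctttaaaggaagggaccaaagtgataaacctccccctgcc

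None of the 5 searched words was found in the printed Apoa4 stretch. The Apoa5 window held GGGTCA 104 bases before the start and its reverse complement TGACCC 90 bases before it, followed by TATAAA 31 bases before the start. Apoc2 held AGGTCA once, 115 bases before its start and on the strand of the gene. These matches describe the letters of the windows and are not evidence of binding.

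The deposited values are FPKM, fragment counts divided by transcript length and by the size of the library, and hold no read counts, so that the depth behind single values is unknown. Between 10587 and 10706 genes exceeded 1 FPKM per library. The second CD-fed RORα f/f library stood apart with a summed FPKM of 983738, against 732622 to 806782 in the other 7, and 1 gene without a symbol here, ENSMUSG00000093077, held 183794 FPKM of it. Of the hepatocyte markers, Ttr lay between 3994 and 4541 FPKM in all 8 libraries, whereas Alb lay between 29900 and 30890 FPKM in 4 libraries and listed at 0 in the other 4, 1 of CD-fed RORα LKO, 1 of HFD-fed RORα f/f and both of HFD-fed RORα LKO, so that an exact 0 in this table can be a failed estimate. Of the 7 hepatocyte markers tested, 2 had an unadjusted p under 0.05 in limma for genotype on HFD, against 9.58% of all genes. Both were lower in RORα LKO, namely Cps1 (-0.46, adjusted p = 0.31) and Hp (-0.27, adjusted p = 0.49). For the diet in RORα LKO it was 3 of 7, against 21.3%, and none passed the adjusted test. Cps1 (-0.44) and Hp (-0.45) were lower and Ttr (0.35) higher on HFD on the normalised scale, although the deposited values of Ttr were lower. Cps1 was 669 and 701 FPKM in CD-fed RORα LKO, 597 and 666 FPKM in HFD-fed RORα f/f and 456 and 455 FPKM in HFD-fed RORα LKO, and its part in the values of Apom and Apoa5, which were lower in the same comparisons, was not tested. No member was listed at 0 in any library. Rora itself lay between 7.3 and 8.85 FPKM in every library and differed by a log2 value of -0.10 (SE 0.07, unadjusted p = 0.23 in limma) on CD and 0.01 (SE 0.07, unadjusted p = 0.85) on HFD. Since the value covers the whole gene and Cre removes exons 4 and 5 only, it does not check the genotype labels, which are used here as given.

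The 10 genes together held between 2.77% and 3.90% of the summed FPKM of a library, the low value being that of the library that stood apart. Their levels, compared per transcript length, spanned 2 orders of magnitude. Apoe was the highest in every library, at 10149 to 11420 FPKM, followed by Apoa2 at 8056 to 9719 FPKM and Apoa1 at 4407 to 6290 FPKM. Apoc3 followed at 1560 to 2005 FPKM, and Apob at 789 to 862 FPKM. This order of the 5 most abundant members held in all 8 libraries. Apob also exceeded Apoa5 in all 8, with ratios of 1.18 to 2.38. Apoa5, at 344 to 668 FPKM, exceeded Apoc2, at 236 to 366 FPKM, in 7 of 8 libraries. Below them, Apoa4, Mttp and Apom were of like level: Apoa4 exceeded Mttp in 6 of 8 libraries and Mttp exceeded Apom in 3 of 8, so that these neighbours were not separated.

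**Figure D1:**
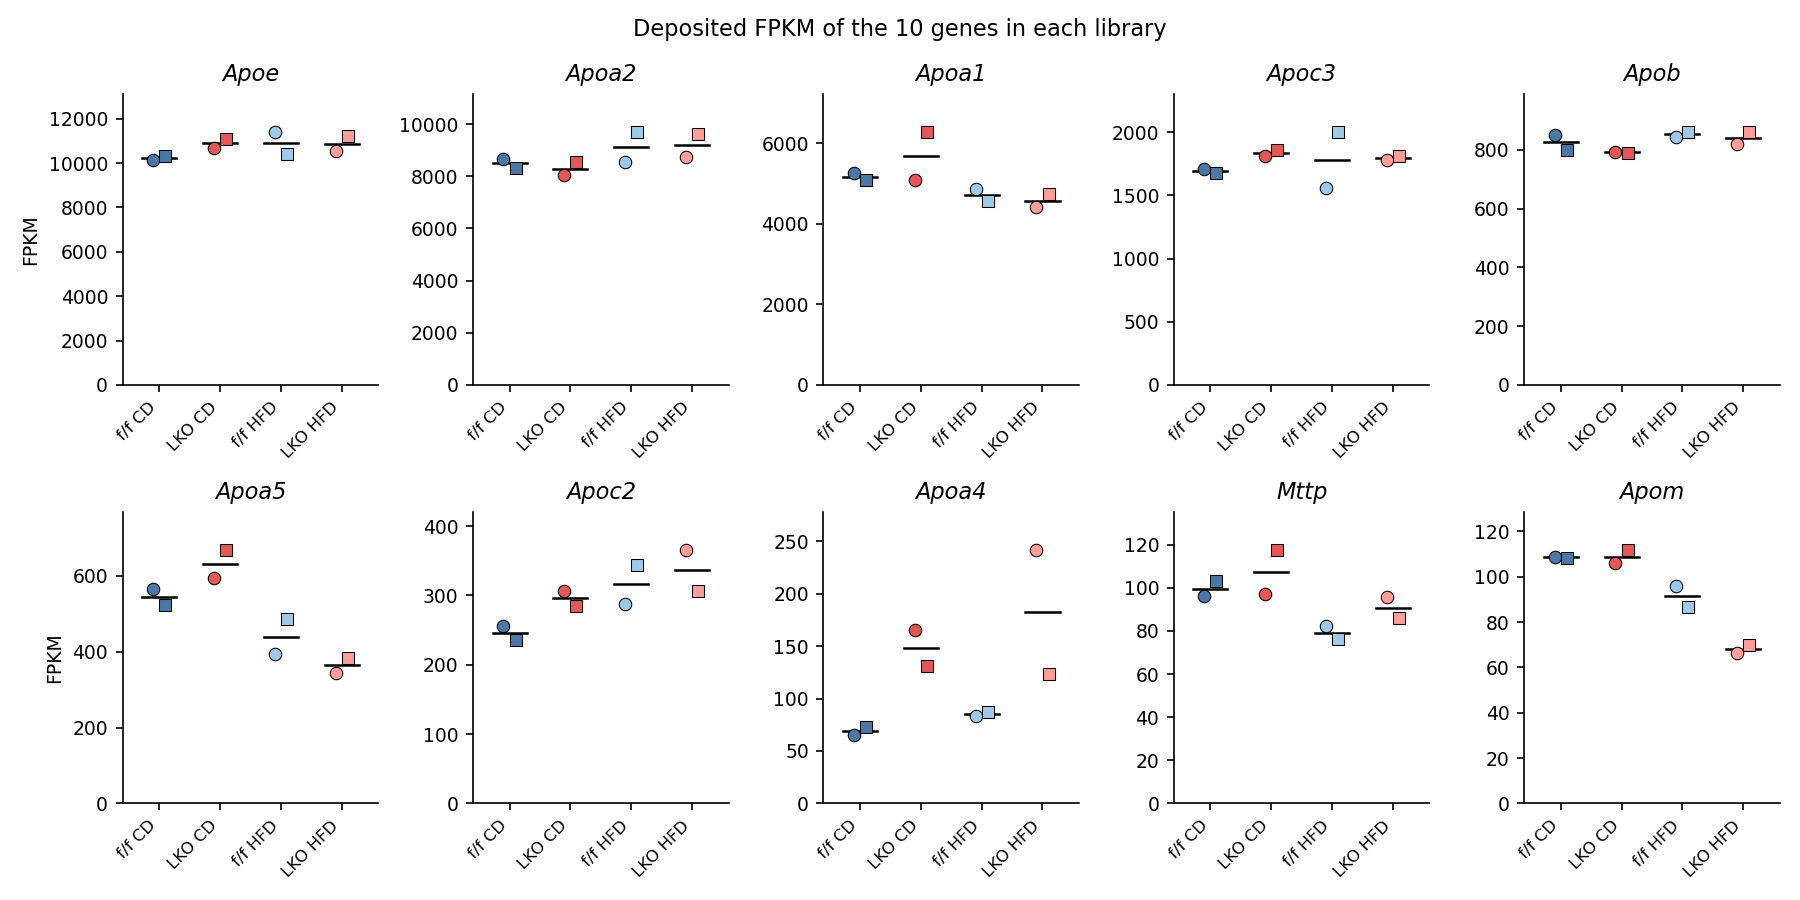
Deposited FPKM of each of the 10 genes (y axis, linear, starting at 0, with a scale of its own in each panel) in the 4 groups; circles are replicate 1, squares replicate 2, and the line is the mean of the 2. Apoa4 is higher in both RORα LKO libraries on each diet, and Apom is lowest in the HFD-fed RORα LKO libraries at 66.3 and 69.9 FPKM, whereas Apoe and Apoa2 vary little.

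The first question was whether hepatic deletion of RORα altered these genes in CD-fed mice. Differences are given as RORα LKO minus RORα f/f in log2(FPKM + 1) after quantile normalisation, with limma p values adjusted by the Benjamini-Hochberg method over all 11634 genes. No member passed an adjusted p of 0.05 on CD, a level that 0.0172% of all tested genes passed, and the lowest adjusted p of a member was 0.27. An unadjusted p under 0.05 was reached by 3 of 10 members, Apoa4, Apoa1 and Apoe, against 12.3% of all genes. On the normalised scale the libraries of the 2 genotypes did not overlap for 4 of 10 members, Apoa1, Apoa4, Apoc2 and Apoe, against 43.0% of all genes. The median difference of the members was 0.21, against -0.0009 over all tested genes. Without normalisation the median was 0.107, and 1 of 10 members, Apoa4, had an unadjusted p under 0.05. In bulk liver, a change in the RNA made per cell and a change in the share of cells that make it cannot be told apart.

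Apoa4 had the widest genotype difference. On CD, its FPKM was 65.7 and 72.9 in the RORα f/f libraries and 166 and 131 in the RORα LKO libraries. Both RORα LKO libraries lay above both RORα f/f libraries, and the difference was 1.09 (SE 0.31, a 2.13-fold ratio, unadjusted p = 0.011, adjusted p = 0.27). On HFD, its FPKM was 83.6 and 87.7 in RORα f/f and 242 and 123 in RORα LKO. The groups were again apart, although the 2 RORα LKO libraries differed from each other more than the lower one did from RORα f/f, and the difference was 1.04 (SE 0.31, unadjusted p = 0.014, adjusted p = 0.36). Without the first HFD-fed RORα LKO library this difference was 0.51, and without the second it was 1.58. Averaged over the diets, the difference was 1.07 (SE 0.22, 2.09-fold, unadjusted p = 0.0021, adjusted p = 0.14), with all 4 RORα LKO libraries above all 4 RORα f/f libraries. Only without the second HFD-fed RORα LKO library did the averaged adjusted p pass 0.05, at 0.017. Relative to each of the other 9 members within the same library, a measure that does not depend on the scaling of libraries, Apoa4 was higher in both RORα LKO libraries than in both RORα f/f libraries in 9 of 9 ratios on CD and in 9 of 9 on HFD. The 9 ratios share the same Apoa4 values and libraries, so that they are not independent observations.

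The last exon of Apoa4 is shared with a gene on the opposite strand. Gm10680, annotated as antisense at chr9:46242621-46243529 on the minus strand, covers 632 of the 1815 exonic bases of Apoa4, all within exon 3. The library kit used does not mark the strand, so that fragments from these bases cannot be assigned to 1 of the 2 genes. The FPKM of Gm10680 was 132 and 198 in CD-fed RORα f/f, 396 and 323 in CD-fed RORα LKO, 230 and 224 in HFD-fed RORα f/f, and 590 and 295 in HFD-fed RORα LKO. It stood above Apoa4 in every library, by 2.00 to 2.75 times, and both genes had their highest value in the first HFD-fed RORα LKO library. Its genotype difference was 1.08 (SE 0.36, adjusted p = 0.32) on CD and 0.93 (SE 0.36, adjusted p = 0.48) on HFD. The values of both genes are therefore uncertain as measures of either strand.

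**Figure D2:**
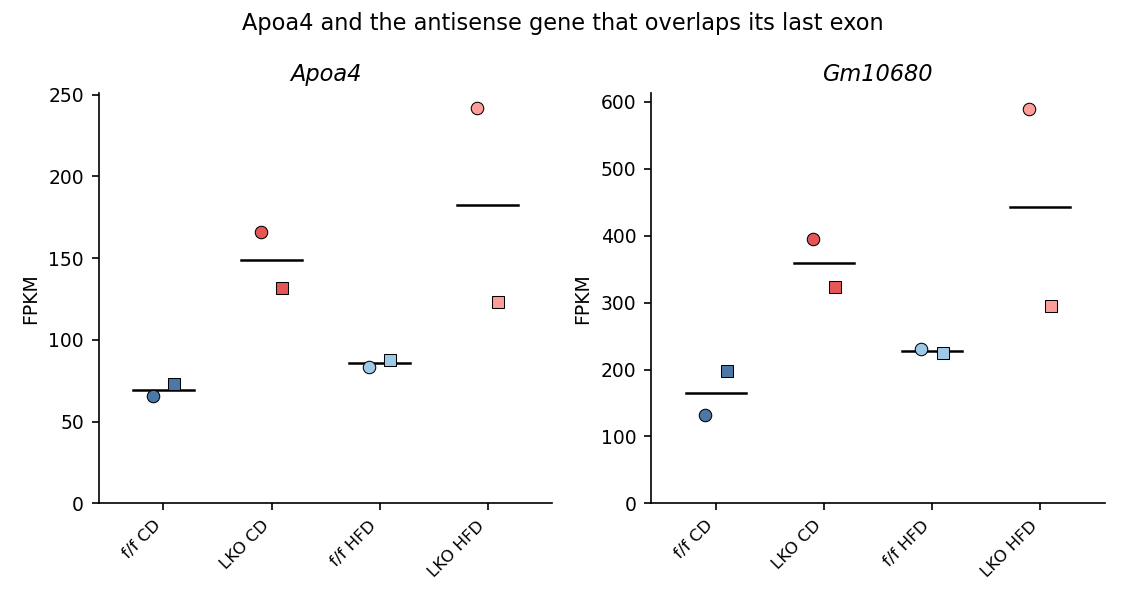
Deposited FPKM of Apoa4 (left) and of the overlapping antisense gene Gm10680 (right) in the 4 groups, on linear axes from 0; circles are replicate 1, squares replicate 2, and lines are means of 2. In both panels the 2 RORα LKO libraries lie above the 2 RORα f/f libraries of the same diet, and the first HFD-fed RORα LKO library is the highest, at 242 and 590 FPKM.

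Intestinal epithelium, a strong source of Apoa4, was represented by a list of 7 enterocyte markers. Alpi, Sis, Cdx2 and Rbp2 were listed at 0 in all 8 libraries, Lct and Vil1 were at 0 in some and at most 0.138 FPKM elsewhere, and only Fabp2, an intracellular fatty acid-binding protein, was tested. The summed FPKM of the list, nearly all of it Fabp2, was 38.2 to 42.3 in CD-fed RORα f/f, 54.3 to 55.4 in CD-fed RORα LKO, 61.1 to 76.6 in HFD-fed RORα f/f and 91.5 to 100 in HFD-fed RORα LKO. Fabp2 was higher in RORα LKO than in RORα f/f, as Apoa4 was, by 0.45 (SE 0.13, adjusted p = 0.265) on CD and 0.52 (SE 0.13, adjusted p = 0.281) on HFD. Unlike Apoa4, Fabp2 passed the adjusted limma test for the diet in both genotypes. Of all genes, 1.33% passed it in RORα f/f and 3.02% in RORα LKO. The adjusted p of Apoa4 for the diet was 0.56 in RORα f/f and 0.61 in RORα LKO. The part of Fabp2 in the values of Apoa4 was not tested.

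The neighbours of Apoa4 in the cluster had smaller differences. Apoa1, the main structural protein of HDL, had 5259 and 5080 FPKM in CD-fed RORα f/f and 5084 and 6290 FPKM in CD-fed RORα LKO. These deposited values overlapped. After quantile normalisation they did not, and the difference was 0.33 (SE 0.11, unadjusted p = 0.022, adjusted p = 0.33), whereas without normalisation it was 0.13 (unadjusted p = 0.30), and without the second CD-fed RORα f/f library it was 0.20. Apoc3, the inhibitor of lipolysis, had 1712 and 1674 FPKM in CD-fed RORα f/f against 1810 and 1855 FPKM in RORα LKO, which were apart as deposited but overlapped after normalisation, with a difference of 0.05 (SE 0.17, adjusted p = 0.93). Apoa5, which favours lipolysis, had 566 and 523 FPKM against 593 and 668 FPKM. Its deposited values were also apart, whereas the normalised ones overlapped, with a difference of 0.23 (SE 0.15, adjusted p = 0.56). The 4 genes of the chromosome 9 cluster thus had higher means of deposited FPKM in CD-fed RORα LKO, and none of these differences passed the adjusted test.

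Of the pair on chromosome 7, Apoe had 10149 and 10317 FPKM in CD-fed RORα f/f and 10699 and 11090 FPKM in CD-fed RORα LKO. The 2 groups were apart by a ratio of means of 1.06, yet the normalised difference was 0.53 (SE 0.20, unadjusted p = 0.036, adjusted p = 0.36). Without normalisation it was 0.09 (unadjusted p = 0.35), and without the second CD-fed RORα f/f library the normalised value was 0.29. Apoe ranked between 10 and 16 among all genes of a library. Quantile normalisation replaces a value by the mean of all libraries at its rank. At this level 1 step in rank moves a gene far. Alb, above Apoe where it has a value, was listed at 0 in the first CD-fed RORα LKO library. It was also at 0 in the second HFD-fed RORα f/f and both HFD-fed RORα LKO libraries. The normalised value of Apoa2 was 13.28 in exactly these libraries and 12.65 to 13.0 in the others. Its deposited values there, 8056 to 9719 FPKM, spanned those of the others. The part of the Alb zeros in the normalised differences of the members was not tested. Apoc2, the cofactor of lipoprotein lipase, had 257 and 236 FPKM in CD-fed RORα f/f against 306 and 285 FPKM in RORα LKO. Its libraries were apart on both scales, with a difference of 0.22 (SE 0.12, unadjusted p = 0.11, adjusted p = 0.51).

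The genes that start VLDL assembly differed little by genotype on CD. Apob had 851 and 799 FPKM in CD-fed RORα f/f and 794 and 789 FPKM in CD-fed RORα LKO, which were apart as deposited, although the normalised values overlapped with a difference of -0.01 (SE 0.08, 95% interval -0.20 to 0.18). Mttp had 96.3 and 103 FPKM against 97.1 and 118 FPKM, a difference of 0.10 (SE 0.12, 95% interval -0.19 to 0.38). Of the HDL proteins, Apoa2 had 8682 and 8302 FPKM against 8056 and 8538 FPKM, and Apom 109 and 108 FPKM against 106 and 112 FPKM. The libraries of Apoa2, Mttp and Apom overlapped between the genotypes. The difference of Apoa2 was 0.21 (95% interval -0.29 to 0.70), and it was -0.03 without normalisation. That of Apom was -0.01 (95% interval -0.19 to 0.17), turning to 0.003 without normalisation.

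**Figure D3:**
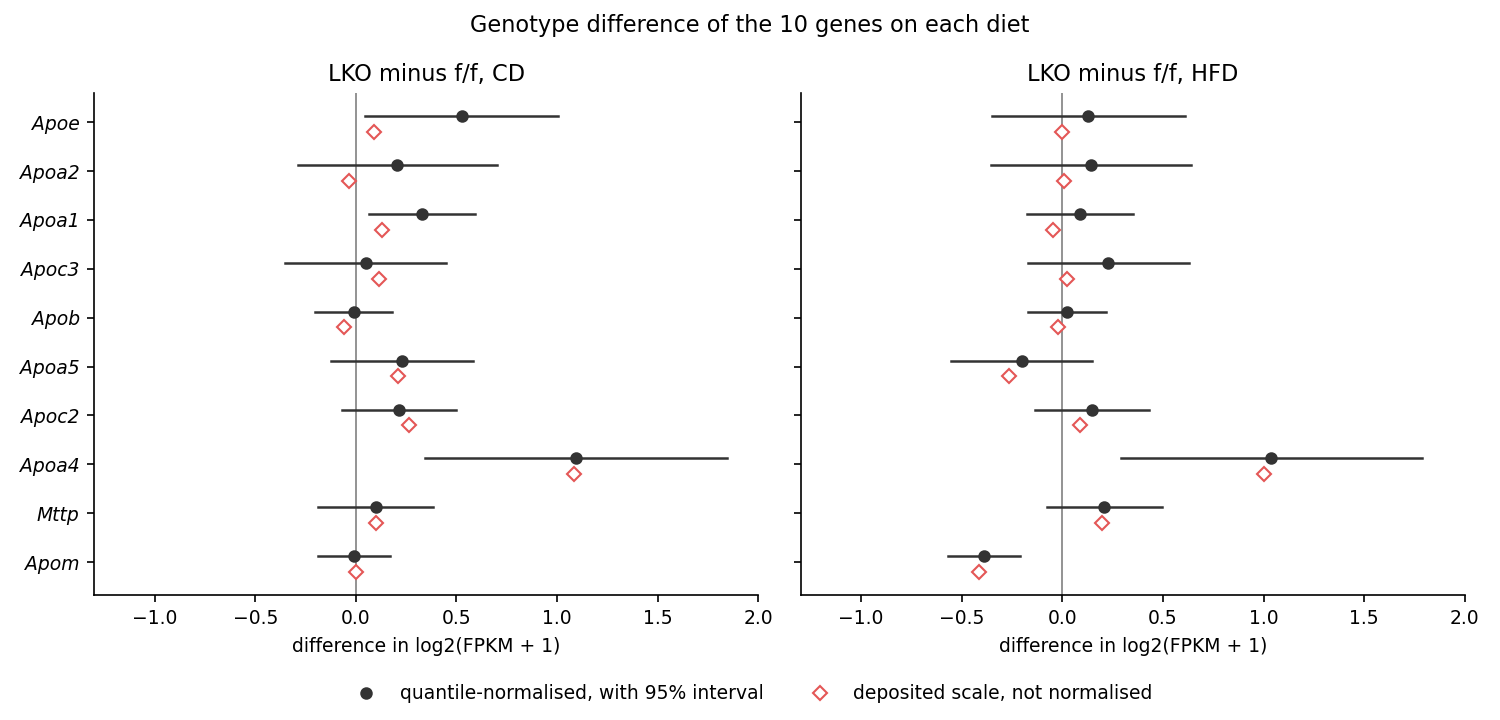
Difference between RORα LKO and RORα f/f libraries in log2(FPKM + 1) (x axis) for the 10 genes, ordered from the most to the least abundant, on CD (left) and HFD (right); filled circles with bars are quantile-normalised values with 95% limma intervals, and open diamonds are the deposited values without normalisation. Apoa4 lies near 1 on both diets and on both scales, Apom lies at -0.39 on HFD and at -0.01 on CD, and the circle of Apoe on CD lies at 0.53 with its diamond at 0.09.

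On HFD, the genotype comparison again gave no member with an adjusted p under 0.05, against 0.043% of all genes, and the lowest adjusted p of a member was 0.23. An unadjusted p under 0.05 was reached by 2 of 10 members, Apoa4 and Apom, against 9.58% of all genes, and 5 of 10 members had normalised values that did not overlap, against 42.2%. The median difference was 0.14, and 0.003 without normalisation. Apom, the sphingosine 1-phosphate carrier of HDL, had 96.0 and 86.6 FPKM in HFD-fed RORα f/f and 66.3 and 69.9 FPKM in HFD-fed RORα LKO. Both RORα LKO libraries lay below both RORα f/f libraries, with a ratio of mean FPKM of 0.746 and a difference of -0.39 (SE 0.08, 95% interval -0.57 to -0.21, unadjusted p = 0.0014, adjusted p = 0.23). The difference lay between -0.47 and -0.31 when each library was left out in turn.

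Among the other members on HFD, Apoa5 had 393 and 487 FPKM in RORα f/f and 344 and 384 FPKM in RORα LKO. It was lower in both RORα LKO libraries, the opposite of its order on CD, by -0.20 (SE 0.15, adjusted p = 0.71). Mttp was 82.1 and 76.2 FPKM in RORα f/f and 95.9 and 85.8 FPKM in RORα LKO, apart by 0.21 (SE 0.12, unadjusted p = 0.13, adjusted p = 0.63). The deposited values of the remaining 6 members overlapped. Apoa1 had 4869 and 4574 FPKM against 4407 and 4740 FPKM, and its normalised difference of 0.09 turned to -0.05 without normalisation. Apoe, at 11420 and 10392 FPKM against 10520 and 11235 FPKM, had a difference of 0.13 that turned to -0.003. For Apob, 844 and 862 FPKM stood against 819 and 861 FPKM, with a difference of 0.02 that turned to -0.02. Apoa2, Apoc2 and Apoc3 had differences of 0.14 (SE 0.21), 0.15 (SE 0.12) and 0.23 (SE 0.17), and without normalisation these were 0.009, 0.09 and 0.022.

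Averaged over the diets, 0 of 10 members passed an adjusted p of 0.05 in limma, against 0.103% of all genes, while 3 of 10 had an unadjusted p under 0.05, against 13.5%. These were Apoa4, Apoa1 and Apom. Apoa1 differed by 0.21 (SE 0.08, unadjusted p = 0.034, adjusted p = 0.32), and by 0.04 (unadjusted p = 0.63) without normalisation. Apom differed by -0.20 (SE 0.05, unadjusted p = 0.0078, adjusted p = 0.19). Within each diet, and in the same direction on both, the genotypes did not overlap for 2 of 10 members, Apoa4 and Apoa1, against 12.2% of all genes. The separation of Apoa1 was on the normalised scale.

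The difference between the genotype effects on the 2 diets was tested directly. It passed an adjusted p of 0.05 for 0 of 10 members in limma, against 0.0344% of all genes, and an unadjusted p of 0.05 for 1 of 10, Apom, against 8.35%. For Apom the genotype difference on HFD minus that on CD was -0.38 (SE 0.11, unadjusted p = 0.0092, adjusted p = 0.56). Apoa5 had the widest value, -0.43 (SE 0.21, unadjusted p = 0.078, adjusted p = 0.64), with its RORα LKO libraries above RORα f/f on CD and below them on HFD in the deposited values. Without normalisation Apoa5 reached -0.48 (unadjusted p = 0.031, adjusted p = 0.61). For Apoa4 the value was -0.055 (SE 0.45), with a 95% interval from -1.11 to 1.00.

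The HFD was compared with the CD within each genotype. These comparisons share the libraries of the genotype comparisons, so that their values are set side by side and are not independent. In RORα f/f, 0 of 10 members passed an adjusted p of 0.05 in limma, against 1.33% of all genes, while 3 of 10, Apoc2, Apob and Apom, had an unadjusted p under 0.05, against 19.2%. In RORα LKO, 1 of 10 passed the adjusted test, against 3.02%, and 5 of 10, Apom, Apoa5, Apoc2, Apob and Apoc3, had an unadjusted p under 0.05, against 21.3%. The libraries of the 2 diets did not overlap for 6 of 10 members in RORα f/f, against 50.3% of all genes, and for 5 of 10 in RORα LKO, against 52.9%.

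The member that passed was Apom. Its FPKM fell from 106 and 112 in CD-fed RORα LKO to 66.3 and 69.9 in HFD-fed RORα LKO, 0.626 of the CD mean. The 2 HFD values lay well below the 2 CD values, and the difference was -0.59 (SE 0.08, 95% interval -0.77 to -0.41, unadjusted p = 0.00012, adjusted p = 0.019). When each library was left out in turn it lay between -0.64 and -0.54, while the adjusted p ranged from 0.0366 to 0.109 and stayed under 0.05 in 3 of 8 such fits. The adjusted p exceeded 0.05 without the first or the second CD-fed RORα LKO library, at 0.0606 and 0.105, without the first or the second HFD-fed one, at 0.109 and 0.101, and without the second CD-fed RORα f/f library, at 0.0503. In RORα f/f, Apom was 109 and 108 FPKM on CD and 96.0 and 86.6 FPKM on HFD. These groups were apart too, with a smaller difference of -0.21 (SE 0.08, unadjusted p = 0.029, adjusted p = 0.21).

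Apoa5 had 593 and 668 FPKM in CD-fed RORα LKO and 344 and 384 FPKM in HFD-fed RORα LKO, 0.578 of the CD mean. Both HFD libraries lay below both CD libraries, with a difference of -0.64 (SE 0.15, unadjusted p = 0.0036, adjusted p = 0.070). On the deposited scale without normalisation it was -0.79 with an adjusted p of 0.031, so that this member passes or misses the threshold with the scaling. In RORα f/f it was 566 and 523 FPKM on CD and 393 and 487 FPKM on HFD, a difference of -0.21 (SE 0.15, adjusted p = 0.48). Apoa5 and Apom were the members with the lowest HFD values in RORα LKO relative to CD, both on the deposited and on the normalised scale.

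Apoc2 was higher on HFD in both genotypes. It had 257 and 236 FPKM on CD and 288 and 344 FPKM on HFD in RORα f/f, a difference of 0.43 (SE 0.12, unadjusted p = 0.0092, adjusted p = 0.13). In RORα LKO it had 306 and 285 FPKM on CD and 366 and 307 FPKM on HFD, by 0.36 (SE 0.12, unadjusted p = 0.020, adjusted p = 0.15). The libraries of the diets were apart in both genotypes, in RORα LKO by less than 1 FPKM between the nearest values. Without normalisation the value in RORα LKO was 0.18 (unadjusted p = 0.18).

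Mttp was lower on HFD in RORα f/f, with 96.3 and 103 FPKM on CD and 82.1 and 76.2 FPKM on HFD. The libraries were apart, with a difference of -0.27 (SE 0.12, unadjusted p = 0.058, adjusted p = 0.28), and -0.33 (unadjusted p = 0.021) without normalisation. In RORα LKO, 97.1 and 118 FPKM on CD stood against 95.9 and 85.8 FPKM on HFD, a difference of -0.16 (SE 0.12, adjusted p = 0.49). Its partner Apob had normalised differences of 0.24 (SE 0.08, unadjusted p = 0.021, adjusted p = 0.18) in RORα f/f and 0.28 (SE 0.08, unadjusted p = 0.012, adjusted p = 0.12) in RORα LKO. The deposited means of Apob differed by ratios of only 1.03 and 1.06, and without normalisation the differences were 0.05 (unadjusted p = 0.50) and 0.09 (unadjusted p = 0.25).

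The same scaling dependence applied to the most abundant members. Apoc3 had 1810 and 1855 FPKM in CD-fed and 1778 and 1813 FPKM in HFD-fed RORα LKO. These deposited values overlapped, yet the normalised difference was 0.43 (SE 0.17, unadjusted p = 0.038, adjusted p = 0.20), and without normalisation it turned to -0.03 (unadjusted p = 0.81). In RORα f/f, Apoc3 was 1712 and 1674 FPKM on CD and 1560 and 2005 FPKM on HFD, the HFD values lying on either side of the CD values. The deposited values of Apoa1 were lower on HFD in both genotypes, 4869 and 4574 against 5259 and 5080 FPKM in RORα f/f and 4407 and 4740 against 5084 and 6290 FPKM in RORα LKO. Its normalised difference was nevertheless 0.14 in RORα f/f, against -0.13 without normalisation, and -0.10 in RORα LKO, against -0.31 (unadjusted p = 0.033) without normalisation. Apoa2 differed by 0.32 (SE 0.21) in RORα f/f and 0.25 (SE 0.21) in RORα LKO, and Apoe by 0.30 (SE 0.20) and -0.10 (SE 0.20), with adjusted p between 0.45 and 0.83. Without normalisation these differences were 0.102 and 0.145 for Apoa2, and 0.09 and -0.003 for Apoe. Apoa4 differed by 0.37 (SE 0.31) in RORα f/f and 0.32 (SE 0.31) in RORα LKO, and without the first HFD-fed RORα LKO library the latter turned to -0.22.

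**Figure D4:**
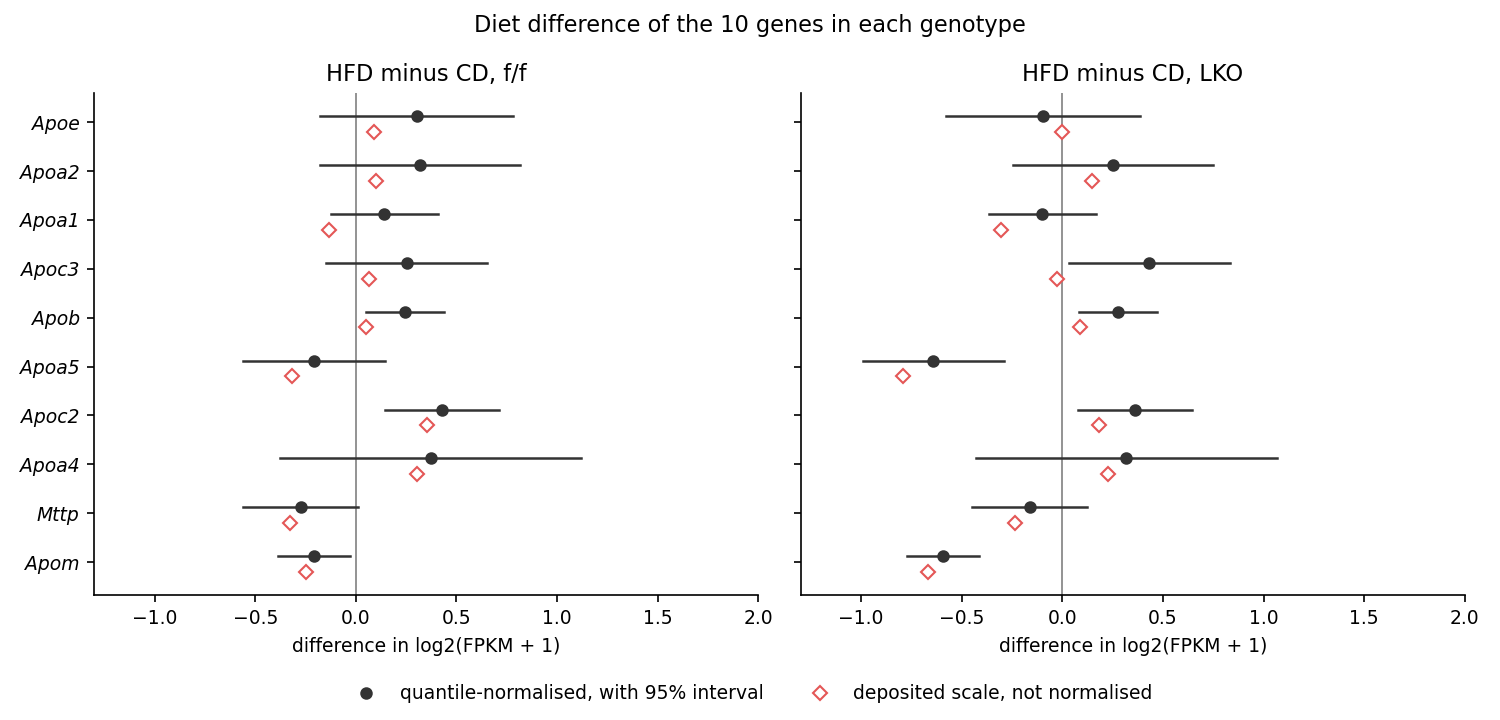
Difference between HFD and CD libraries in log2(FPKM + 1) (x axis) for the 10 genes in RORα f/f (left) and RORα LKO (right); filled circles with bars are quantile-normalised values with 95% limma intervals, and open diamonds are the deposited values without normalisation. Apom and Apoa5 lie furthest below 0 in RORα LKO, at -0.59 and -0.64, and the circles of Apoe, Apoa2, Apoa1, Apoc3 and Apob lie to the right of their diamonds in most places.

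Other genes of the pathway were taken from lists compiled by hand. Genes singled out below had an unadjusted p under 0.05 in at least 1 comparison, at most 4 per list and comparison. Not every such gene is named. Of 6 further apolipoproteins tested (Apoc1, Apoc4, Apoh, Apof, Apon and Clu), 0 had an unadjusted p under 0.05 in limma in either genotype comparison. The shares of all genes were 12.3% on CD and 9.58% on HFD. In RORα LKO, Apoh, a plasma glycoprotein that binds phospholipid, was 1346 and 1212 FPKM on CD and 1324 and 1413 FPKM on HFD. Its deposited values overlapped, with means of 1280 and 1370 FPKM, and it passed the adjusted test at 0.41 (SE 0.08, adjusted p = 0.047). It was the 1 of 6 genes that passed there, against 3.02% of all genes. The part of the normalisation in this difference was not tested.

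Of 14 genes of VLDL assembly and secretion, unadjusted p values under 0.05 were found for 2 on CD (Mia2 and Mia3, which help export large cargo from the endoplasmic reticulum, at -0.23 and -0.18) and for 1 on HFD, against 12.3% and 9.58% of all genes. This was Dgat2, which makes triglyceride, at 260 and 261 FPKM in HFD-fed RORα f/f and 210 and 219 FPKM in HFD-fed RORα LKO. The groups were apart by -0.30 (SE 0.06, unadjusted p = 0.0019, adjusted p = 0.23). For the diet, 1 of 14 passed the adjusted test in RORα f/f and 0 of 14 in RORα LKO. Of all genes, 1.33% and 3.02% passed there. In RORα f/f, Dgat2 rose on HFD from 207 and 205 FPKM by 0.44 (SE 0.06, adjusted p = 0.037), and in RORα LKO it differed by 0.12 (SE 0.06, adjusted p = 0.32). Of 4 genes that edit the Apob mRNA, Apobec1, the deaminase itself, was 6.61 and 6.66 FPKM in CD-fed RORα f/f and 4.12 and 4.29 FPKM in HFD-fed RORα f/f, against 6.57 and 6.70 FPKM in CD-fed and 6.18 and 5.50 FPKM in HFD-fed RORα LKO. It fell by 0.53 on the log2 scale on HFD in RORα f/f (adjusted p = 0.044), and the genotype difference on HFD was 0.40 (SE 0.08, unadjusted p = 0.0022, adjusted p = 0.24). Of these 4 genes, 1 passed the adjusted test for the diet in RORα f/f and 0 in RORα LKO. FPKM values do not show the editing of Apob itself.

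Of 10 genes of HDL formation and remodelling, 3 had an unadjusted p under 0.05 on CD and 2 on HFD, against 12.3% and 9.58% of all genes, and none passed the adjusted test by genotype. Pltp, the phospholipid transfer protein, was 8.83 and 15.4 FPKM in CD-fed RORα f/f and 26.6 and 24.9 FPKM in CD-fed RORα LKO, apart by 1.10 (SE 0.29, adjusted p = 0.25). On HFD it was 8.26 and 8.34 FPKM against 21.9 and 12.8 FPKM, apart by 0.95 (SE 0.29, adjusted p = 0.36). Scarb1, the hepatic HDL receptor, differed by 0.22 (SE 0.07, adjusted p = 0.29) on CD and 0.19 (SE 0.07, adjusted p = 0.43) on HFD. It rose on HFD in both genotypes, by 0.40 (SE 0.07, adjusted p = 0.049) in RORα f/f and 0.37 (SE 0.07, adjusted p = 0.042) in RORα LKO. Lipg, an endothelial lipase that acts on HDL, differed by -1.06 (SE 0.19, adjusted p = 0.056) on HFD in RORα f/f. For the diet, 1 of 10 genes passed the adjusted test in each genotype. Of all genes, 1.33% passed in RORα f/f and 3.02% in RORα LKO.

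Of 14 genes of lipolysis and clearance, 3 on CD and 2 on HFD had an unadjusted p under 0.05 by genotype, against the same 12.3% and 9.58%. Angptl8, a hepatic inhibitor of lipoprotein lipase, was 13.0 and 9.56 FPKM in CD-fed RORα f/f and 33.1 and 30.3 FPKM in CD-fed RORα LKO. The 2 groups lay far apart, with a difference of 1.45 (SE 0.13, unadjusted p = 1.5e-05, adjusted p = 0.057). On HFD it was 21.0 and 22.4 FPKM in RORα f/f and 17.5 and 17.9 FPKM in RORα LKO, lower in the latter by -0.26 (SE 0.13, adjusted p = 0.60). The difference between these effects was -1.71 (SE 0.19, unadjusted p = 4.7e-05, adjusted p = 0.11). For the diet, 5 of 14 genes in RORα f/f and 9 of 14 in RORα LKO had an unadjusted p under 0.05. The shares of all genes were 19.2% and 21.3%. The adjusted test was passed by 2 and 3 of 14, against 1.33% and 3.02%. Between the diets Angptl8 rose by 0.93 in RORα f/f (SE 0.13, adjusted p = 0.038) and fell by 0.78 on the log2 scale in RORα LKO (SE 0.13, adjusted p = 0.036).

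Vldlr, a lipoprotein receptor of low level in liver, was 0.377 and 0.201 FPKM in CD-fed and 1.46 and 1.69 FPKM in HFD-fed RORα f/f, and 0.505 and 0.426 FPKM in CD-fed and 2.21 and 2.82 FPKM in HFD-fed RORα LKO. It rose on HFD by 0.98 (SE 0.14, adjusted p = 0.038) and 1.28 (SE 0.14, adjusted p = 0.018), values that the pseudocount of 1 makes smaller than the ratio of FPKM.

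**Figure D5:**
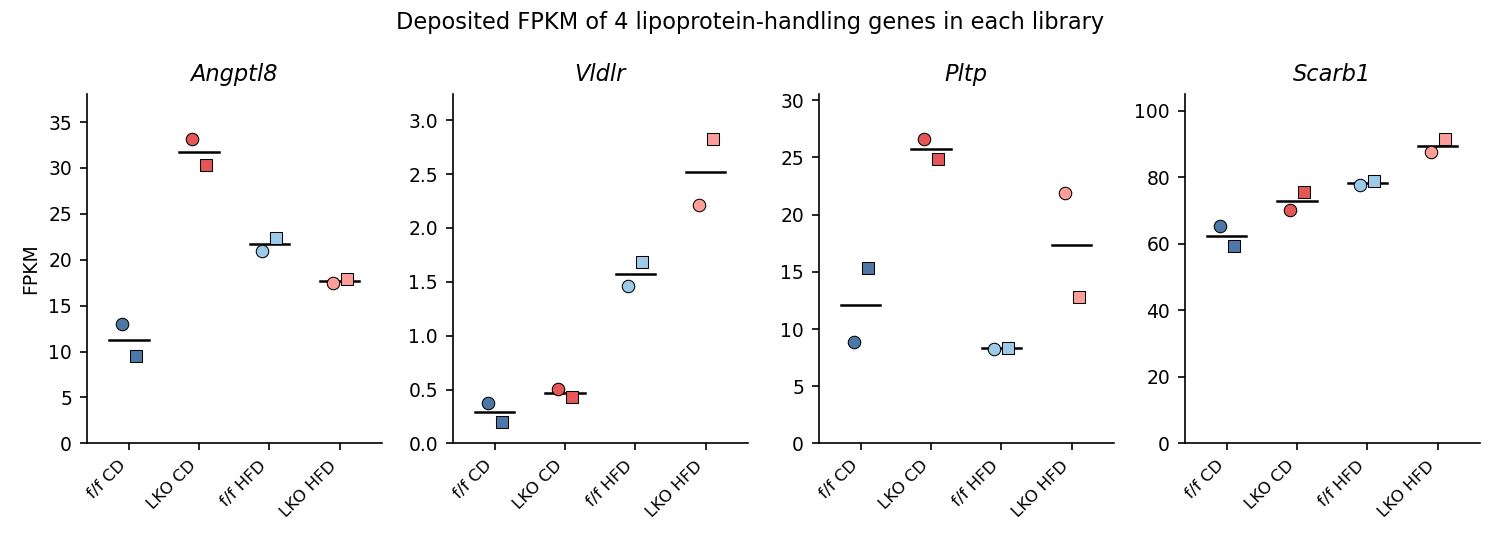
Deposited FPKM of 4 genes of lipoprotein lipolysis, clearance and HDL remodelling (y axes, linear, starting at 0, with a scale of their own) in the 4 groups; circles are replicate 1, squares replicate 2, and lines are means of 2. Angptl8 is highest in CD-fed RORα LKO at 33.1 and 30.3 FPKM, Vldlr is higher in all HFD libraries than in all CD libraries, and Pltp is higher in RORα LKO than in RORα f/f on CD, at 26.6 and 24.9 against 8.83 and 15.4 FPKM.

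Of 29 tested transcription regulators of apolipoprotein genes, 6 on CD and 5 on HFD had an unadjusted p under 0.05 by genotype, against 12.3% and 9.58% of all genes, and 0 of 29 passed the adjusted test in limma in either. On CD, Foxo1 differed by -0.88 (SE 0.10, adjusted p = 0.076), Cebpa by 0.46 (SE 0.08, adjusted p = 0.15), Srebf1 by 0.68 (SE 0.13, adjusted p = 0.20) and Ppargc1a by -0.55 (SE 0.11, adjusted p = 0.20). On HFD, Nr1d2 differed by -0.36, Cebpa by -0.41, Pparg by 0.42 and Srebf1 by -0.41. Cebpa, a hepatocyte factor, was 73.6 and 65.9 FPKM in CD-fed RORα f/f against 100 and 93.7 FPKM in CD-fed RORα LKO, and 104 and 98.5 FPKM against 71.6 and 76.3 FPKM on HFD. Its libraries were apart on both diets, in opposite directions. For the diet, 2 of 29 regulators passed the adjusted test in each genotype. Of all genes, 1.33% passed in RORα f/f and 3.02% in RORα LKO. Among the diet comparisons, Nr1d1, the REV-ERBα receptor that binds the same half-site as RORα, rose by 1.05 (SE 0.14, adjusted p = 0.037) in RORα f/f and 1.35 (SE 0.14, adjusted p = 0.018) in RORα LKO.

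Genes next to the members in the genome gave a comparison by position. Of 18 tested neighbours, 2 on CD and 2 on HFD had an unadjusted p under 0.05 by genotype, shares close to the 12.3% and 9.58% of all genes, and 0 of 18 passed the adjusted test in limma. On CD these were Tomm40l (-0.48) and Nr1i3 (-0.41), which lie near Apoa2, and on HFD Gpank1 (0.39) and Bag6 (-0.20), which lie near Apom. Zpr1 and Bud13, which lie near Apoa5 on chromosome 9, had lower means on HFD in both genotypes. Zpr1, a zinc-finger protein, was 26.2 and 40.7 FPKM in CD-fed and 10.9 and 11.6 FPKM in HFD-fed RORα LKO. It fell by 1.43 on the log2 scale (SE 0.24, adjusted p = 0.036). Bud13, a splicing factor, fell by 1.03 there (SE 0.16, adjusted p = 0.028). In RORα f/f their differences were -1.07 (SE 0.24, adjusted p = 0.089) and -0.88 (SE 0.16, adjusted p = 0.056). For the diet, 3 of 18 neighbours in RORα f/f and 9 of 18 in RORα LKO had an unadjusted p under 0.05, against 19.2% and 21.3% of all genes. Of the 9 in RORα LKO, 6 were lower and 3 higher on HFD. The adjusted test was passed by 3 of 18 there, against 3.02%. Zpr1 and Bud13 had lower HFD values in the same group in which Apoa5 did, and a link by position was not tested.

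The genes with a pattern most like that of a member over the 8 libraries were sought by Pearson's r of the normalised log2 values, for the 4 members with an unadjusted p under 0.05 in a genotype comparison. These correlations are descriptive, over 8 libraries that share their scaling. They are the highest found among all tested genes other than the members. The height that the best r of an arbitrary pattern would reach was not computed. The differences of Apoa1 and Apoe also depended on the normalisation. Apoa4 was most like Gm10680 (r = 0.974), Lrrc8d (0.973) and Akr1b10 (0.969), of which the last did not exceed 1.23 FPKM. Gm10680 shares 632 of its 702 exonic bases with Apoa4 and the kit does not mark the strand. The values of Gm10680 and Apoa4 are therefore not separate measures. Apom was most like Rpl12 (0.989), Cyld (0.982) and Rpl21 (0.980). Apoa1 was most like Mief2 (0.957), Gimd1 (0.957) and Camta2 (0.956), and Apoe most like Ahdc1 (0.961), Ncam2 (0.956) and Gins2 (0.950). Among the members themselves, the highest value was that of Apob with Apoc3 (0.873) and the lowest that of Apoc2 with Apom (-0.853).

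Marker lists of other cell types were summed per library. Macrophage and Kupffer cell markers summed to between 82.2 and 150 FPKM and red blood cell markers to between 65.8 and 502 FPKM, within or above the range of single members such as Apom, Mttp and Apoa4. Stellate cell and fibroblast markers summed to between 39.9 and 95.6 FPKM, endothelial markers to between 36.6 and 55.6 FPKM, cholangiocyte markers to between 17.9 and 31.5 FPKM, adipocyte markers to between 6.72 and 15.9 FPKM and lymphocyte markers to between 1.29 and 2.64 FPKM. Some markers of these lists had an unadjusted p under 0.05 in the comparisons in which Apom and Apoa5 were lower. Of 9 macrophage markers, 3 had such a p for genotype on HFD, against 9.58% of all genes. All 3 were higher in RORα LKO, namely Clec4f (0.39), Cd68 (0.54) and Timd4 (0.38). For the difference between diets it was also 3 of 9, against 8.35%, namely Clec4f (0.49), Vsig4 (0.61) and Timd4 (0.73), and none passed the adjusted test. The summed macrophage markers were 82.2 to 100 FPKM in HFD-fed RORα f/f and 97.8 to 150 FPKM in HFD-fed RORα LKO. Between the diets in RORα LKO, 3 of 8 stellate cell and fibroblast markers had an unadjusted p under 0.05, against 21.3% of all genes. These were Dcn (1.04), Lrat (0.63) and Reln (0.80), all higher on HFD, and none passed the adjusted test. Of the other markers, Acta2, Col1a1 and Col3a1 had lower mean FPKM on HFD, and Pdgfrb and Des higher. The list summed to 39.9 to 53.0 FPKM on CD and 74.3 to 95.6 FPKM on HFD. Dcn alone had means of 31.5 FPKM on CD and 63.0 FPKM on HFD. Of the red blood cell markers, Alas2 fell there by 0.66 on the log2 scale (adjusted p = 0.0313). The adipocyte sum was highest in HFD-fed RORα LKO, at 14.2 to 15.9 FPKM, and was nearly all from Cfd and Fabp4, whereas the defining markers Adipoq and Lep were listed at 0 in both libraries of that group and Adipoq was 0.377 and 0.212 FPKM in HFD-fed RORα f/f. The part of these cell types in the values of Apom and Apoa5 was not tested.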

How the data were processed

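Liver poly(A) RNA was sequenced in 8 libraries. Per the labels and the study's methods, the authors trimmed reads with cutadapt 1.0, aligned them to GRCm38 with TopHat2 2.0.7 and estimated FPKM with Cufflinks, and the deposited FPKM table is the only file. The kit does not mark the strand. Genes above 1 FPKM in at least 1 library were kept (11634 of 38283), and log2(FPKM + 1) was quantile normalised and fitted in limma 3.58.1 (R 4.3.3) as 4 group means with a mean-variance trend. A pseudocount of 1 understates changes of low genes. P values were two-sided and adjusted by the Benjamini-Hochberg method, at 0.05, in 6 comparisons. The study's own test by random regrouping of samples was not run. RORα f/f mice were littermates of RORα LKO mice, but the labels do not tie libraries to litters, and p values measure the spread between libraries. All members were named. The list genes singled out had an unadjusted p under 0.05 in at least 1 comparison, at most 4 per list and comparison, and not every such gene was named. Members and lists were chosen with earlier results of these data known. The fit was tested on simulated data. Alternatives changed the normalisation, pseudocount, filter, trend, block and libraries used. The values of 1 list gene are not reported here.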

Additional observations from a re-analysis of the deposited data

Results flagged for a closer look

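The genotype difference of Apom on HFD minus that on CD was -0.384 (SE 0.107, unadjusted p = 0.0092, adjusted p = 0.56), and it was looked at again because the test of the difference between diets gave an unadjusted p under 0.05. Both HFD-fed RORα LKO libraries lay below both HFD-fed RORα f/f libraries, whereas the CD libraries overlapped.

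The same test had an unadjusted p under 0.05 for the following other genes of the lists, none of which passed the adjusted test. Of 29 tested regulators 7 had such a p, not all named here. Among them, the difference between diets was -0.874 for Cebpa, -1.092 for Srebf1, 0.737 for Foxo1 and 0.594 for Ppargc1a. It was -1.705 for Angptl8, the inhibitor of lipoprotein lipase, with an adjusted p of 0.11. Among genes of VLDL assembly it was -0.322 for Dgat2 and 0.254 for Mia2. Of the genes that edit the Apob mRNA, Apobec1 had 0.394 and Rbm47 -0.265. Of the genome neighbours, Tomm40l had 0.672 and Nr1i3 0.589. Over all tested genes, 8.35% had an unadjusted p under 0.05 in this test.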

How the results depend on the processing

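Under every alternative run, Apoa4 was higher in RORα LKO on both diets, and Apom was lower in HFD-fed than in CD-fed RORα LKO. The adjusted p of the latter exceeded 0.05, beside the fits with a library left out, with libraries scaled to the same summed FPKM (0.0866) and with only the libraries compared (0.11). For the diet in RORα LKO, Apoa5 passed the adjusted test without normalisation (0.031), and its lowest adjusted p over all alternatives was 0.028. Where a value below turned or a count moved, the cause was not tested. Scaling to the same summed FPKM shifted the median of all genes by 0.18 for genotype on CD and for diet in RORα f/f and by -0.17 for the difference between diets. As reported, genes with an adjusted p under 0.05 numbered 2 (genotype on CD), 5 (genotype on HFD), 4 (the difference between diets), 155 (diet in RORα f/f), 351 (diet in RORα LKO) and 12 (genotype averaged over diets). Without normalisation, the log2 differences that turned were Apoa2 -0.0338 and Apom 0.00319 (genotype on CD), Apoa1 -0.0461, Apob -0.0224 and Apoe -0.00291 (genotype on HFD), Apoa2 0.0433 and Apoc3 -0.0924 (the difference between diets), Apoa1 -0.13 (diet in RORα f/f), Apoc3 -0.0292 (diet in RORα LKO), Apoa2 -0.0122, Apoa5 -0.0277 and Apob -0.0411 (genotype averaged over diets). Genes with an adjusted p under 0.05 numbered 7 (genotype averaged over diets), and members with an unadjusted p under 0.05 numbered 1 (genotype on CD), 2 (the difference between diets) and 3 (diet in RORα LKO). With median centring, the log2 differences that turned were Apoa2 -0.0277 and Apom 0.00934 (genotype on CD), Apoa1 -0.0389 and Apob -0.0151 (genotype on HFD), Apoa2 0.0444 and Apoc3 -0.0913 (the difference between diets), Apoa1 -0.10 (diet in RORα f/f), Apoc3 -0.00149 and Apoe 0.0249 (diet in RORα LKO), Apoa2 -0.00547, Apoa5 -0.0210 and Apob -0.0344 (genotype averaged over diets), and members with an unadjusted p under 0.05 numbered 1 (genotype on CD), 2 (the difference between diets) and 3 (diet in RORα LKO). With libraries scaled to the same summed FPKM, the log2 differences that turned were Apob 0.16 and Apom 0.22 (genotype on CD), Apoa1 -0.0208 (genotype on HFD), Apob -0.15, Apoc3 -0.28 and Mttp -0.0951 (the difference between diets), Apoe 0.0444 (diet in RORα LKO). Genes with an adjusted p under 0.05 numbered 56 (diet in RORα f/f) and 120 (diet in RORα LKO), and members with an unadjusted p under 0.05 numbered 2 (the difference between diets) and 2 (diet in RORα LKO). With the same scaling but without the 100 most abundant genes, the log2 differences that turned were Apoa2 -0.0553 (genotype on CD), Apoa1 -0.0111 (genotype on HFD), Apoa2 0.0999 and Apoc3 -0.0359 (the difference between diets), Apoa1 -0.0727 (diet in RORα f/f), Apoe 0.11 (diet in RORα LKO), Apoa2 -0.00538, Apoa5 -0.0210 and Apob -0.0344 (genotype averaged over diets). Genes with an adjusted p under 0.05 numbered 4 (genotype on CD) and 7 (genotype averaged over diets), and members with an unadjusted p under 0.05 numbered 1 (genotype on CD) and 2 (the difference between diets). With a pseudocount of 0.1, genes with an adjusted p under 0.05 numbered 1 (genotype on CD) and 2 (the difference between diets). With FPKM above 1 required in every library, the log2 differences that turned were Apoc3 -0.0156 (genotype on CD), Apob -0.00366 (genotype on HFD), Apob -0.00585 (genotype averaged over diets). Genes with an adjusted p under 0.05 numbered 7 (genotype on CD), 0 (the difference between diets), 323 (diet in RORα f/f), 570 (diet in RORα LKO) and 50 (genotype averaged over diets), and members with an unadjusted p under 0.05 numbered 2 (the difference between diets). With no filter on low FPKM, genes with an adjusted p under 0.05 numbered 10 (genotype on CD), 24 (genotype on HFD), 19 (the difference between diets), 46 (diet in RORα f/f), 135 (diet in RORα LKO) and 28 (genotype averaged over diets), and members with an unadjusted p under 0.05 numbered 1 (genotype on CD). Without genes listed at 0 in any library, the log2 differences that turned were Apoc3 -0.0156 (genotype on CD), Apob -0.00366 (genotype on HFD), Apob -0.00585 (genotype averaged over diets). Genes with an adjusted p under 0.05 numbered 9 (genotype on CD), 0 (the difference between diets), 297 (diet in RORα f/f), 568 (diet in RORα LKO) and 38 (genotype averaged over diets), and members with an unadjusted p under 0.05 numbered 2 (the difference between diets). Without the mean-variance trend, genes with an adjusted p under 0.05 numbered 4 (genotype on CD), 42 (diet in RORα f/f) and 229 (diet in RORα LKO). With only the libraries compared, genes with an adjusted p under 0.05 numbered 0 (genotype on CD), 5 (diet in RORα f/f) and 0 (diet in RORα LKO), and members with an unadjusted p under 0.05 numbered 1 (genotype on HFD).

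Leaving out single libraries, the log2 differences that turned in at least 1 fit ranged over Apoa2 -0.0520 to 0.47, Apob -0.0445 to 0.0265, Apoc3 -0.0305 to 0.10, Apom -0.0552 to 0.0398 and Mttp -0.0394 to 0.23 (genotype on CD), Apob -0.0429 to 0.10, Apoc2 -0.00935 to 0.30 and Apoc3 -0.0297 to 0.51 (genotype on HFD), Apoa2 -0.32 to 0.18, Apoa4 -0.59 to 0.48, Apob -0.0319 to 0.11, Apoc2 -0.23 to 0.0819, Apoc3 -0.0838 to 0.45 and Mttp -0.0266 to 0.25 (the difference between diets), Apoc3 -0.00909 to 0.51 (diet in RORα f/f), Apoa4 -0.22 to 0.85 and Apoe -0.28 to 0.0800 (diet in RORα LKO), Apoa5 -0.0789 to 0.11 and Apob -0.0269 to 0.0443 (genotype averaged over diets). Genes with an adjusted p under 0.05 then numbered 2 to 19 (genotype on CD), 4 to 21 (genotype on HFD), 10 to 21 (the difference between diets), 14 to 49 (diet in RORα f/f), 21 to 154 (diet in RORα LKO) and 13 to 30 (genotype averaged over diets), and members with an unadjusted p under 0.05 1 to 2 (genotype on CD), 1 to 3 (genotype on HFD), 1 to 2 (the difference between diets), 0 to 4 (diet in RORα f/f) and 3 to 5 (diet in RORα LKO). The replicate numbers were shared between groups, but the deviations of libraries with the same number correlated between -0.00371 and 0.149 over the tested genes, so that the numbers were not taken to pair the libraries. In the fit with a replicate block, genes with an adjusted p under 0.05 numbered 34 (diet in RORα f/f) and 223 (diet in RORα LKO). In limma, the 0 genes passing for the difference between diets with FPKM above 1 in every library and without genes listed at 0 compare with 874 and 973 genes at an unadjusted p under 0.05, and the 0 genes passing with only the libraries compared with 1221 (genotype on CD) and 2330 (diet in RORα LKO). In the comparisons of 2 against 2 libraries the smallest exact permutation p was 0.333, so that their tests rest on limma's spread shared over genes. Depth was unknown, and each library pooled 2 mice.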
